A study of Mus musculus with 12 samples.

Results

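A group of iron and heme handling genes, 9 of the 20551 genes in the table, was followed in mouse airway macrophages (AMs): Fth1, Ftl1, Hmox1, Blvrb, Slc40a1, Tfrc, Slc11a2, Slc11a1 and Lcn2. They were taken by name, with earlier results of these data known, and all 9 passed the filter on low counts that left 13729 genes for testing. Macrophages take up iron bound to transferrin and iron released from engulfed cells, store it in ferritin cages, free it from heme with heme oxygenase and return it to the tissue through ferroportin. During bacterial infection they are known to hold iron back from microbes, through ferritin storage, through metal pumps of the phagosome and through proteins that catch bacterial siderophores.

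The mice were C57BL/6, either wild-type (WT) or Scnn1b-Tg, in which the club cell secretory protein (CCSP) promoter drives the sodium channel subunit Scnn1b in airway epithelium and whose lungs become obstructed by mucus. Staining in the study did not find the SCNN1B protein in AMs. AM pools of 3 to 4 animals received 100 ng/ml lipopolysaccharide (LPS) from P. aeruginosa, or culture medium alone, for 12 h, to compare the response of AMs from healthy and from mucus-obstructed lungs. Each genotype had 3 pools (numbered 16, 17 and 18 in WT and 17, 18 and 19 in Scnn1b-Tg), and each pool gave 1 medium and 1 LPS library, so 4 groups of 3 libraries were compared. The mice were 6 weeks old. Batch 1 of the labels holds the pools WT 16, WT 17 and Tg 17, and batch 2 the other 3 pools.

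Totals ran from 48.2 to 60.9 M deposited counts per library. All 10 listed macrophage markers were found, summing to 8538 to 17203 CPM (counts scaled to a common library size) per library. Their sum differed between the groups: in medium it ran from 11703 to 12561 CPM in WT libraries and from 13802 to 17203 CPM in Scnn1b-Tg libraries, which do not overlap, and with LPS from 8538 to 10605 CPM and from 10208 to 15343 CPM. Chil3 made up most of it, with a mean of 9971 of 12157 CPM in WT medium and 12604 of 15011 in Scnn1b-Tg medium. Marco and Krt79 had lower means in Scnn1b-Tg medium than in WT medium, and the other listed macrophage markers had higher ones. The 5 erythroid markers analysed, hemoglobins included, summed to at most 0.402 CPM and each stayed under 1 CPM, and the 6 neutrophil markers analysed summed to 5.62 to 14.9 CPM. The 8 airway epithelium markers summed to 80.4 to 118 CPM in WT libraries and 35.9 to 73.4 CPM in Scnn1b-Tg libraries, so their sum moved with genotype. Scgb1a1 differed most, with a mean of 54.3 of 99.3 CPM in WT medium and 19.5 of 53.4 in Scnn1b-Tg medium. The means of Cdh1 (6.18 and 6.5 CPM), Foxj1 and Muc5b (both under 1 CPM) were not lower in Scnn1b-Tg medium. Scnn1b was at most 0.755 CPM in any library. RNA came from whole cultures, so a change in the cells present and a change per cell cannot be told apart.

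Part of this gene group is controlled after transcription. Iron regulatory proteins bind a short hairpin, the iron-responsive element, when iron is scarce: in a 5′ UTR the hairpin blocks translation, and in a 3′ UTR it protects the mRNA from decay. The transcripts of the GENCODE M21 annotation (mm10) were searched for a bulged C, a stem of 5 base pairs and a loop of 6 bases that starts with CAGTG. The pattern lay in a UTR of 4 of the 9 genes. It was found in a 5′ UTR of 0.105% and a 3′ UTR of 0.457% of 21901 protein-coding genes. The elements are shown because their genes are under known control by iron after transcription. They need not mark every such member. Each is written 5′ to 3′ on the strand of its gene, as DNA letters of 29 bases, with the loop in capitals.
Fth1, 5′ UTR, chr19:9982732-9982760, plus strand: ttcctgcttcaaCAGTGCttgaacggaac
Ftl1, 5′ UTR, chr7:45459779-45459807, minus strand: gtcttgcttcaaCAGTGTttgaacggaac
Slc40a1, 5′ UTR, chr1:45925465-45925493, minus strand: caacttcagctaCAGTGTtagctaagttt
Tfrc, 3′ UTR, chr16:32631219-32631247, plus strand: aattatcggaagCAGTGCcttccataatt
Tfrc, 3′ UTR, chr16:32631598-32631626, plus strand: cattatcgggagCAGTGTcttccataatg
Tfrc, 3′ UTR, chr16:32631663-32631691, plus strand: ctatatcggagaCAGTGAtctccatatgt
Tfrc, 3′ UTR, chr16:32631710-32631738, plus strand: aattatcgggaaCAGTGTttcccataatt
The windows of Fth1 and Ftl1 differed at 3 of 29 bases, and at 1 of the 17 bases from the bulge to the end of the stem. Tfrc held 4 elements within 520 bp. Hmox1, Blvrb, Slc11a1, Slc11a2 and Lcn2 had no match to these letters. The search leaves out hairpins of another shape, so these genes, Slc11a2 among them, were not shown to lack such an element.

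Expression of the members spanned several orders of magnitude. Per kb of the principal transcript, the ferritin subunits Fth1 and Ftl1 lay far above the rest. The mean of Ftl1 was 26655 to 35795 CPM per kb over the groups. Fth1 was at 31200 to 45688 CPM per kb on its 1494 bp transcript and at 50175 to 73474 on its 929 bp transcript, so the order of both subunits in WT medium depends on the transcript used. The heme genes Hmox1 (305 to 1440 CPM per kb) and Blvrb (435 to 678) came next, followed by Slc11a1 (118 to 248). Slc11a2 ranged from 20.5 to 104 CPM per kb. Slc40a1 (10.3 to 15.6) and Tfrc (12.6 to 16.1) were low in every group, and Lcn2 ran from 0.194 to 50.3 CPM per kb.

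**Figure D1:**
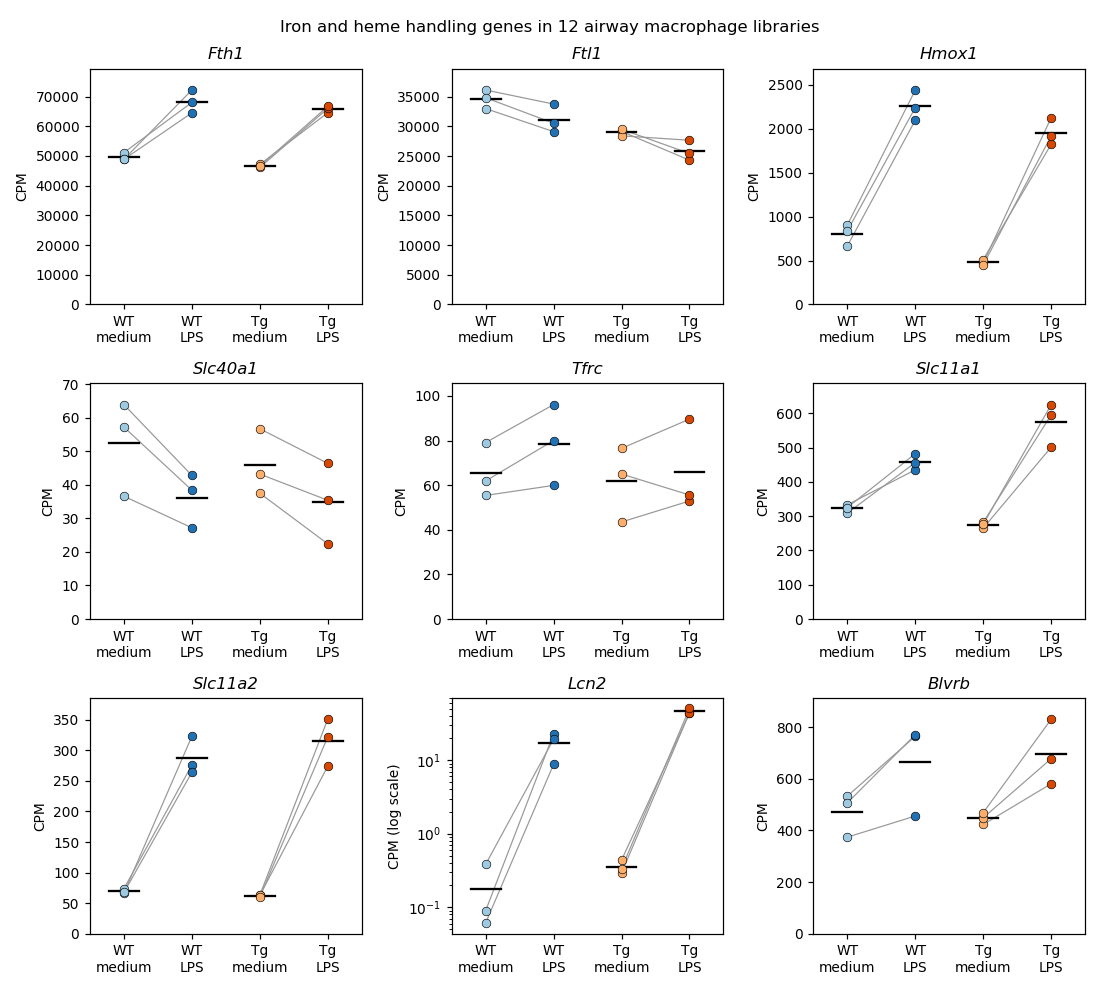
CPM of the 9 genes in each of the 12 libraries (points), with the mean of each group of 3 (bars) and lines joining the medium and LPS libraries of a pool; the Lcn2 axis is logarithmic and the others start at 0. Slc11a2, Hmox1, Slc11a1, Fth1 and Lcn2 are higher in every LPS library than in every medium library, while the Slc40a1 and Tfrc libraries of both treatments overlap in each genotype.

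After LPS, 5 of the 9 genes rose in WT AMs and 6 in Scnn1b-Tg AMs. None fell in this main fit, which did not pair the libraries of a pool. With the pool as a fixed replicate block, 7 passed in each genotype and Slc40a1 fell in both, which the random block did not call. Calls also rose over all genes with the fixed block, from 4359 to 5233 in WT and from 5225 to 6098 in Scnn1b-Tg. Fth1, Hmox1, Slc11a1, Slc11a2 and Lcn2 rose in both genotypes, and Blvrb passed the test in Scnn1b-Tg. Over all genes tested, 15.5% rose and 16.2% fell in WT in the main fit, and 19.3% rose and 18.7% fell in Scnn1b-Tg. The median log2 change of the members was 0.49 in WT and 0.63 in Scnn1b-Tg, beside 0.00 and -0.02 over all genes. Tests were edgeR quasi-likelihood fits with Benjamini-Hochberg adjustment over all genes, and errors of log2 changes are standard errors.

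Fth1 encodes the ferritin heavy chain, which oxidizes iron for storage (chr19:9980598-9985098). It was the most counted gene in all 12 libraries. In WT it stood at 51142, 48901 and 48878 CPM in medium and at 68040, 72214 and 64520 CPM with LPS (pools 16, 17 and 18). In Scnn1b-Tg it stood at 47165, 46132 and 46542 CPM in medium and at 64556, 66016 and 66708 CPM with LPS (pools 17, 18 and 19). Every LPS library was above every medium library. The log2 change was 0.46 ± 0.09 in WT (edgeR adjusted p = 0.0021) and 0.50 ± 0.09 in Scnn1b-Tg (edgeR adjusted p = 0.00098), or 1.32- to 1.48-fold within each pool. As a share of all counts, Fth1 went from 5.1% ± 0.161 to 6.61% ± 0.2 in WT and from 4.84% ± 0.0321 to 6.36% ± 0.176 in Scnn1b-Tg (SD, n = 3).

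Ftl1 encodes the ferritin light chain, which aids mineral formation in the cage (chr7:45457944-45459884). It ranked between the second and the fourth most counted gene. WT libraries held 36125, 32997 and 34827 CPM in medium and 33761, 29114 and 30530 CPM with LPS, which overlap. Scnn1b-Tg libraries held 29149, 28409 and 29518 CPM in medium and 24311, 27661 and 25434 CPM with LPS, which do not. All 6 pools were lower with LPS, by -0.04 to -0.26 on the log2 scale. The fitted change of -0.15 ± 0.09 in WT and -0.17 ± 0.09 in Scnn1b-Tg did not pass the test (edgeR adjusted p = 0.253 and 0.186), and with the pool as a random replicate block (limma voom) the adjusted p was 0.0572 and 0.0346. Reads of Ftl1 can be split with near-identical copies, and its exons overlap those of Gm10252 and Gm22133 in counts made without strand, so its level is uncertain. Ftl1-ps1, Ftl1-ps2 and Ftl2-ps together held 2.68 to 3.34% as many counts as Ftl1.

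The balance of heavy and light chain counts differed between treatments. The ratio of Fth1 to Ftl1 counts was 1.42, 1.48 and 1.4 in WT medium and 2.02, 2.48 and 2.11 in WT LPS. It was 1.62, 1.62 and 1.58 in Scnn1b-Tg medium and 2.66, 2.39 and 2.62 in Scnn1b-Tg LPS. The LPS ratios lay above all medium ratios, and in medium each Scnn1b-Tg library lay above each WT library, while with LPS the genotypes overlapped. Adding the copies to Ftl1 gave means of 1.39 and 2.14 in WT and 1.56 and 2.48 in Scnn1b-Tg. The ratio compares libraries only, because transcript lengths differ between both genes, and it was described without a test. Together the subunits held 7.77 to 9.79% of the counts of a library.

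**Figure D2:**
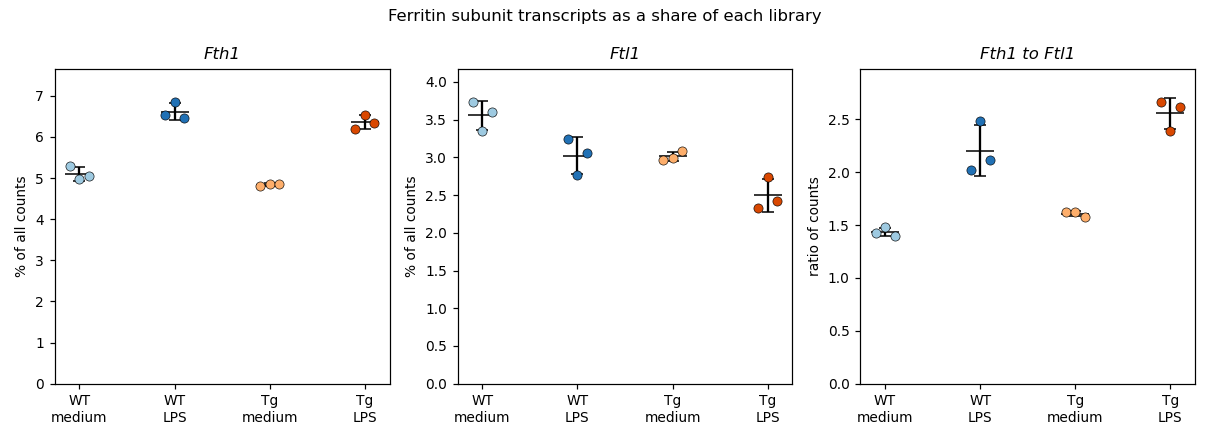
Share of all counts held by Fth1 and by Ftl1 (percent) and the ratio of their counts in each library (points), with mean and SD of each group of 3 (bars); all axes start at 0. Fth1 is higher with LPS and Ftl1 lower on average, which takes the mean ratio from 1.43 to 2.2 in WT and from 1.61 to 2.56 in Scnn1b-Tg.

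Hmox1 encodes the inducible heme oxygenase, which opens heme and releases its iron (chr8:75093621-75100589). WT libraries held 905, 666 and 839 CPM in medium and 2441, 2098 and 2240 CPM with LPS. Scnn1b-Tg libraries held 473, 511 and 451 CPM in medium and 2126, 1824 and 1918 CPM with LPS. The treatments did not overlap in either genotype. Hmox1 rose by a log2 change of 1.49 ± 0.12 in WT and 2.03 ± 0.12 in Scnn1b-Tg (edgeR adjusted p = 3.71e-06 and 2.79e-07), which is 2.81-fold and 4.09-fold. In order, the groups ran from Scnn1b-Tg medium through WT medium and Scnn1b-Tg LPS to WT LPS, and the last 2 overlapped.

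Blvrb encodes biliverdin reductase B, a partner of heme breakdown that also acts as a flavin reductase (chr7:27447978-27466144). WT libraries held 533, 374 and 507 CPM in medium and 765, 456 and 771 CPM with LPS. Pool WT 17 was the lowest under both treatments, so the groups overlapped although each pool was higher with LPS. Scnn1b-Tg libraries held 423, 449 and 469 CPM in medium and 581, 678 and 831 CPM with LPS, without overlap. The log2 change was 0.63 ± 0.18 in Scnn1b-Tg (edgeR adjusted p = 0.0178) and 0.49 ± 0.18 in WT, which missed the threshold (edgeR adjusted p = 0.0633). With the pool as a fixed replicate block the WT change was 0.47 and passed (edgeR adjusted p = 0.00323), as it did without the WT LPS library 17 (0.68, adjusted p = 0.00624) or the WT medium library 16 (0.65, adjusted p = 0.0295). The Scnn1b-Tg call was lost without the LPS library 19 (0.53, edgeR adjusted p = 0.0739) and without the medium library 18 or 19 (adjusted p = 0.063 and 0.0541).

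Slc40a1 encodes ferroportin, the iron exporter (chr1:45908068-45926523). WT libraries held 63.9, 36.6 and 57.2 CPM in medium and 42.8, 27.2 and 38.4 CPM with LPS. Scnn1b-Tg libraries held 56.7, 37.5 and 43.2 CPM in medium and 46.4, 22.4 and 35.4 CPM with LPS. The groups overlapped, yet the LPS library was the lower one in each of the 6 pools, by -0.28 to -0.73 on the log2 scale. Without pairing, the log2 change was -0.54 ± 0.27 in WT and -0.40 ± 0.27 in Scnn1b-Tg, and neither passed (edgeR adjusted p = 0.164 and 0.284). With the pool as a fixed replicate block they were -0.53 ± 0.10 and -0.43 ± 0.10 and both passed (edgeR adjusted p = 0.0034 and 0.00798), whereas with the pool as a random replicate block neither did (limma voom adjusted p = 0.062 and 0.111). Leaving out the WT medium library 17, the lowest of its group, gave -0.78 in WT (edgeR adjusted p = 0.0464).

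Tfrc encodes the transferrin receptor, the door for transferrin-bound iron (chr16:32608920-32632794). WT libraries held 61.9, 79.1 and 55.4 CPM in medium and 80, 96.1 and 59.9 CPM with LPS. Scnn1b-Tg libraries held 76.5, 43.5 and 65 CPM in medium and 89.6, 52.9 and 55.6 CPM with LPS. Pools WT 17 and Tg 17 were the highest of their genotype under both treatments, and the treatments overlapped. The log2 change was 0.25 ± 0.15 in WT and 0.08 ± 0.15 in Scnn1b-Tg and did not pass (edgeR adjusted p = 0.248 and 0.728), and in pool Tg 19 the LPS library was the lower one, by -0.22.

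Slc11a2 encodes DMT1, the divalent metal transporter that moves iron out of endosomes (chr15:100387898-100425072). WT libraries held 73.6, 66.3 and 67.4 CPM in medium and 276, 323 and 264 CPM with LPS. Scnn1b-Tg libraries held 63, 62.5 and 60.2 CPM in medium and 351, 274 and 322 CPM with LPS. The medium libraries lay within a narrow band and each LPS library stood far above them. The log2 rise of 2.06 ± 0.10 in WT and 2.35 ± 0.10 in Scnn1b-Tg is 4.16-fold and 5.09-fold (edgeR adjusted p = 7.29e-08 and 2.20e-08). The exons of Slc11a2 overlap those of Gm5475 on the opposite strand, and counting ignored strand.

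Slc11a1 encodes NRAMP1, in its active form a pump that moves metal ions out of the phagosome and away from engulfed bacteria (chr1:74375195-74386062). Which form of NRAMP1 the mouse strain used here carries was not examined, and neither its protein nor its activity was measured. The values describe mRNA only, and a rise in them does not show a working pump. WT libraries held 333, 309 and 325 CPM in medium and 435, 456 and 482 CPM with LPS. Scnn1b-Tg libraries held 282, 265 and 276 CPM in medium and 595, 501 and 625 CPM with LPS. No pair of the 4 groups overlapped, and the order was Scnn1b-Tg medium, WT medium, WT LPS and Scnn1b-Tg LPS. Slc11a1 rose by 0.51 ± 0.09 in WT and 1.06 ± 0.09 in Scnn1b-Tg on the log2 scale (edgeR adjusted p = 0.0012 and 3.65e-06), or 1.42-fold and 2.09-fold.

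Lcn2 encodes lipocalin 2, which captures bacterial siderophores and is also abundant in neutrophils (chr2:32384633-32388252). It was close to absent in medium, with 5, 3 and 19 counts in WT and 17, 23 and 18 counts in Scnn1b-Tg, which is 0.0611 to 0.382 and 0.291 to 0.437 CPM. With LPS it reached 22.8, 8.76 and 19.3 CPM in WT, and the Scnn1b-Tg libraries held 44.3, 43.3 and 50.5 CPM. Each LPS library was above each medium library. The fitted log2 rise was 6.58 ± 0.48 in WT and 7.02 ± 0.43 in Scnn1b-Tg (edgeR adjusted p = 1.84e-06 and 3.13e-07), about 95.8-fold and 130-fold, and without the WT medium library 18 the WT value was 7.70. The sum of the 6 neutrophil markers was 5.62 to 13.9 CPM in WT medium and 8.57 to 10.2 in WT LPS. For Scnn1b-Tg the sum was 11.5 to 13.5 in medium and 8.49 to 14.9 with LPS. Camp, Ngp and S100a9 stayed under 1 CPM, and the other markers moved in different directions. The mean of S100a8 was 2.86 CPM in medium and 7.32 with LPS in WT, against 4.53 and 11.1 in Scnn1b-Tg. Mean Cxcr2 was lower with LPS, at 0.186 against 4.01 CPM (WT) and 0.232 against 7.5 (Scnn1b-Tg). Mean Ltf was also lower with LPS (WT 1.76 against 2.45 CPM, Scnn1b-Tg 0.145 against 0.668), with overlapping libraries. The part of neutrophil RNA in the Lcn2 values was not tested.

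**Figure D3:**
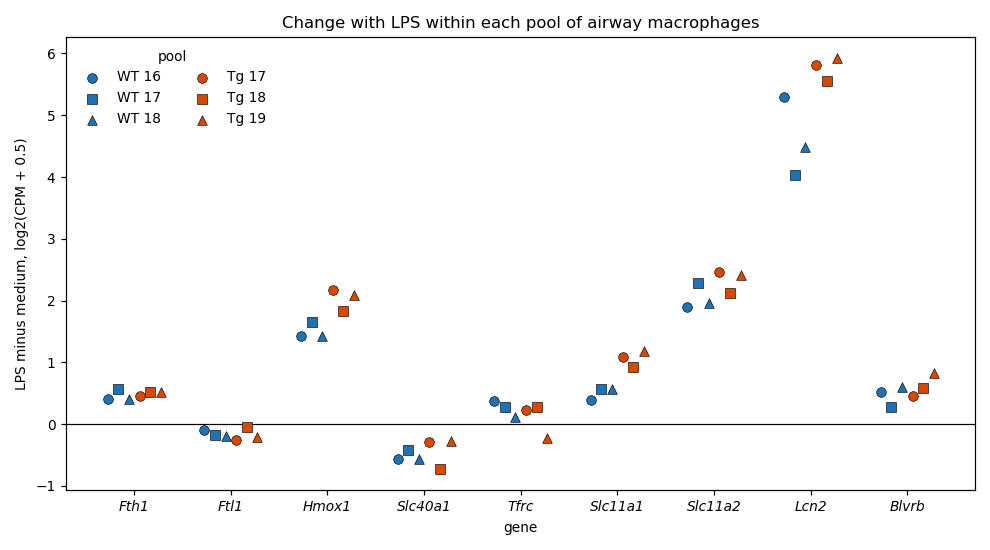
Difference of log2(CPM + 0.5) between the LPS and the medium library of each pool, for the 9 genes (WT pools blue, Scnn1b-Tg pools orange; the added 0.5 shrinks the values of Lcn2). Slc40a1 and Ftl1 are below 0 in all 6 pools, Tfrc is on both sides, and the Scnn1b-Tg points of Slc11a1 (0.92 to 1.18) and Hmox1 (1.83 to 2.17) lie above the WT points (0.39 to 0.57 and 1.42 to 1.65).

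In medium, Hmox1 differed between the genotypes and was the lone member to pass, as 0.335% of all genes did. Its log2 difference, Scnn1b-Tg minus WT, was -0.74 ± 0.12 (edgeR adjusted p = 0.042), or 0.598 of the WT level, and it was -0.72 within batch 1 and -0.80 within batch 2. The call was lost with no filter on low counts (edgeR adjusted p = 0.0747), with only the 6 medium libraries fitted (adjusted p = 0.102) and in 9 of the 12 fits that left out 1 library (adjusted p = 0.0517 to 0.263: each of the 6 Scnn1b-Tg libraries, WT medium 16 and 18, and WT LPS 18), with a difference of -0.85 to -0.64 under all alternatives. Of the members, 5 of 9 had no overlap between the genotypes in medium, beside 18.4% of all genes: Fth1, Ftl1, Hmox1, Slc11a1 and Slc11a2, each lower in Scnn1b-Tg. For Ftl1 the difference was -0.26 ± 0.10 and for Slc11a1 -0.23 ± 0.09, with edgeR adjusted p of 0.275 and 0.299. In medium the epithelial marker sum given above was lower in Scnn1b-Tg, with Scgb1a1 the marker that differed most. The macrophage marker sum, which is mostly Chil3, was higher, and the part of both in these values was not tested.

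With LPS, none of the 9 genes passed between the genotypes in edgeR, beside 0.051% of all genes, or in DESeq2, which called 146 genes. In edgeR 3 members and 978 of the 13729 genes had an unadjusted p under 0.05. The genotypes did not overlap for 3 of 9 genes, beside 9.11% of all genes. Lcn2 was higher in Scnn1b-Tg by 1.36 ± 0.30 (edgeR adjusted p = 0.159), with 1.61 within batch 1 and 1.26 within batch 2. Slc11a1 was higher by 0.33 ± 0.09 (edgeR adjusted p = 0.319), with 0.42 and 0.21 within the batches. Ftl1 was lower, at -0.28 ± 0.10 (edgeR adjusted p = 0.514), with -0.37 and -0.20 within the batches. Hmox1, which differed in medium, stood at -0.20 ± 0.12 with LPS (edgeR adjusted p = 0.831).

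The test of the difference between both LPS responses called 0 of the 9 genes and 0% of all genes in edgeR, with 3 members and 817 genes at an unadjusted p under 0.05, while DESeq2 called 77 genes. Slc11a1 had the lowest p among the members: its rise was larger in Scnn1b-Tg by 0.56 ± 0.12 on the log2 scale (adjusted p = 0.377 in edgeR and 0.0141 in DESeq2). For Hmox1 the excess was 0.54 ± 0.16 (edgeR adjusted p = 0.632) and for Slc11a2 0.29 ± 0.13 (edgeR adjusted p = 0.825). The changes of the WT and the Scnn1b-Tg pools on the scale of log2(CPM + 0.5) did not overlap for 3 members, Hmox1, Slc11a1 and Lcn2, beside 16.5% of all genes. For Lcn2 this came from the added 0.5: without it, an alternative chosen after seeing the data, the changes were 7.99, 7.16 and 5.66 in the WT pools and 7.25, 6.63 and 7.23 in the Scnn1b-Tg pools, which overlap. Its fitted difference was 0.44 ± 0.89 (edgeR adjusted p = 0.992), and -0.67 without the WT medium library 18.

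**Figure D4:**
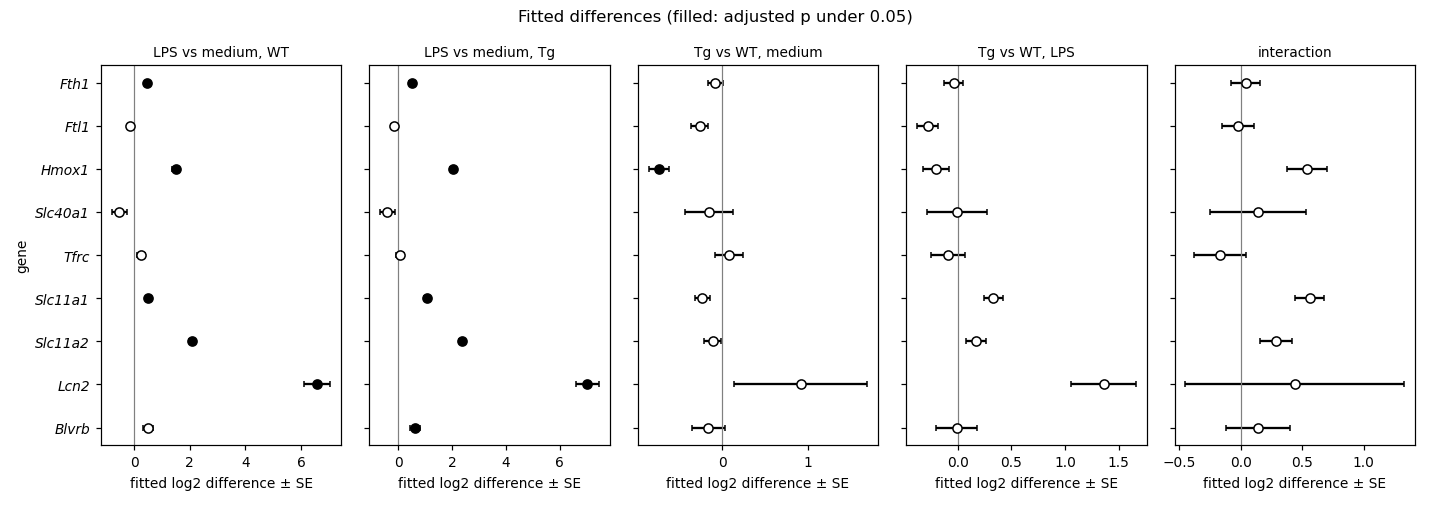
Fitted log2 differences with standard errors for the 9 genes in the 5 comparisons (edgeR; filled points have an adjusted p under 0.05; each panel has its own axis). Filled points stand in both LPS panels and, for Hmox1 at -0.74, in the comparison of genotypes in medium.

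The other genes of iron and heme metabolism were taken from 8 lists, of which 64 of 80 genes were tested. In WT, 10 rose and 17 fell with LPS, and in Scnn1b-Tg 14 rose and 19 fell, with a median log2 change of -0.08 and -0.05. Over all genes, as given above, 15.5% rose and 16.2% fell in WT and 19.3% and 18.7% in Scnn1b-Tg, so the rises, 10 and 14 of 64, lie near those shares and the falls, 17 and 19 of 64, above them, with no test of either. The counts within single lists are small and are descriptions. In the uptake list 1 of 6 genes rose and 2 fell in each genotype. Slc39a14, which carries iron not bound to transferrin, rose by 1.85 ± 0.19 in WT and 2.29 ± 0.19 in Scnn1b-Tg (edgeR adjusted p = 2.08e-05 and 3.21e-06). Hfe, a partner of the transferrin receptors, fell, at -1.72 ± 0.17 and -1.82 ± 0.16 (edgeR adjusted p = 1.68e-05 and 5.82e-06). None of the 3 genes on storage and its turnover passed in edgeR, by an adjusted or an unadjusted p under 0.05.

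In the export list 1 of 4 genes rose, Hamp, which encodes hepcidin, the hormone that removes ferroportin from the membrane. Hamp lies outside the rule for named genes because of its level and was chosen after its values were seen. It was at 0 to 0.125 CPM in the medium libraries and at 2.66 to 3.57 CPM in the LPS libraries (edgeR adjusted p = 9.08e-07 in WT and 6.05e-07 in Scnn1b-Tg).

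Among 11 genes of heme uptake, transport and breakdown, 2 rose and 5 fell in each genotype. The porphyrin exporter Abcg2 and the heme-linked transporter Flvcr2 fell: Abcg2 at -1.96 ± 0.12 in WT and -2.33 ± 0.12 in Scnn1b-Tg, and Flvcr2 at -1.71 ± 0.13 and -2.25 ± 0.14 (edgeR adjusted p at most 3.34e-06). Of 14 heme synthesis genes, 2 rose and 4 fell in WT, and 5 rose and 4 fell in Scnn1b-Tg. Alas1, the first enzyme of the route, rose in WT from a mean of 1471 ± 122 CPM to 3402 ± 109, and in Scnn1b-Tg from 1330 ± 41.7 to 3151 ± 162 (SD, n = 3), with an edgeR adjusted p of 1.06e-06 and 5.54e-07. Slc25a37, mitoferrin 1, which brings iron into mitochondria, rose by 1.99 ± 0.15 and 2.45 ± 0.15, with an edgeR adjusted p of 2.35e-06 and 3.36e-07. Exons of Alas1 and Slc25a37 overlap antisense genes, from which they cannot be told apart here.

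Of 13 genes for iron-sulfur clusters none rose, and 3 fell in WT and 4 in Scnn1b-Tg. In the list of sensors and transcription factors, 4 of 9 rose in each genotype, and 1 fell in WT and 2 in Scnn1b-Tg. Hif1a, whose exons overlap an antisense gene and the protein-coding Gm49321, rose by 0.93 ± 0.11 and 1.06 ± 0.11 (edgeR adjusted p = 5.79e-05 and 1.48e-05). Epas1, which encodes HIF-2alpha and is itself a known target of iron regulatory proteins, fell, at -2.65 ± 0.19 and -2.97 ± 0.19 (edgeR adjusted p = 1.47e-06 and 3.87e-07). Epas1 was the 1 listed gene to pass between the genotypes in medium, at 46.2 ± 9.91 CPM in WT against 96 ± 6.11 in Scnn1b-Tg (SD, n = 3, log2 difference 1.02 ± 0.18, edgeR adjusted p = 0.0449), opposite in direction to Hmox1. Like that of Hmox1, the call was lost with no filter on low counts (edgeR adjusted p = 0.0747), with only the 6 medium libraries fitted (adjusted p = 0.0843) and, here, in 10 of the 12 fits without 1 library, all but those without WT LPS 16 or 17 (adjusted p = 0.0588 to 0.267, differences of 0.83 to 1.15 under all alternatives). With LPS none of the 64 passed in edgeR, where 5 had an unadjusted p under 0.05 and DESeq2 called 1. The siderophore list also holds transferrin (Trf) and lactoferrin (Ltf), which are not siderophore genes. Of its 4 tested genes, 2 fell in each genotype, Slc22a17 and Trf, and 1 rose in Scnn1b-Tg, Bdh2, which reached at most 1.54 CPM there. These genes lie outside the rule for named genes and are named to show what the list holds. Exons of Trf overlap those of the protein-coding Gm20425.

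**Figure D5:**
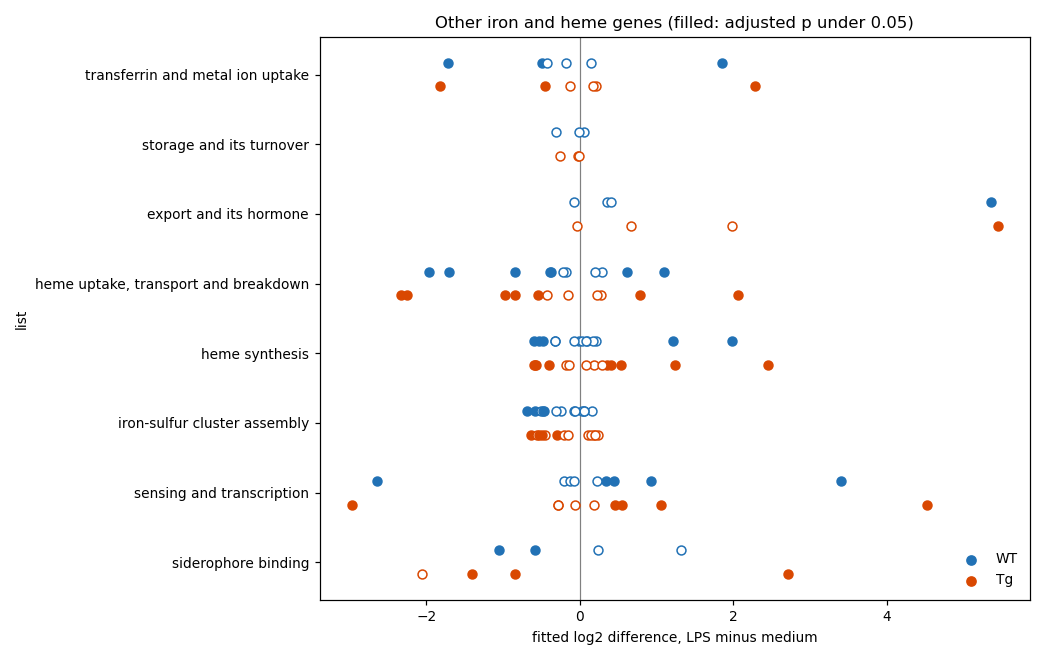
Fitted log2 difference between LPS and medium for the other iron and heme genes by list (WT blue, Scnn1b-Tg orange; filled points have an edgeR adjusted p under 0.05). The iron-sulfur cluster list holds filled points on the left only, and the point near 5.4 in the export list is Hamp.

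The genes most like each member over the 12 libraries were found by Pearson's r of log2 CPM among 9092 genes. These values are descriptions, since all points share 2 treatments. Fth1 was closest to Ext1 (r = 0.994) and Ell2 (0.990), Hmox1 to Procr (0.990) and Serpinb9 (0.989), Slc11a2 to Dcbld2 (0.999) and Malt1 (0.997), Slc11a1 to Dram1 (0.982) and Vasp (0.977), and Lcn2 to AA467197 (0.995) and Slamf7 (0.993). Between 99 and 469 genes reached 0.95 for each of these. Blvrb was closest to Selenos (0.983) and Nsfl1c (0.974), and Tfrc to Thrap3 (0.981) and Ankib1 (0.976), where 15 and 11 genes reached 0.95. No gene did so for Ftl1, closest to Thoc1 (0.929) and Ftl2-ps (0.917), or for Slc40a1, closest to Cpne1 (0.834) and Ephx1 (0.827).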

How the data were processed

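RNA was measured in 12 libraries of AM pools. The authors aligned read pairs of 125 bp to mm10 with HISAT2 in unstranded mode (nf-core RNAseq 1.2), quantified transcripts with StringTie on GENCODE M20 and deposited estimated counts per gene as whole numbers. These were derived from coverage, so 1 read can be worth more than 1 count, and PCR copies of a molecule are counted separately. The accounts of isolation differ: the labels describe plate-adherent lavage cells, and the study's methods describe sorted AMs.

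Symbols and positions came from GENCODE M21 for 20158 of 20551 IDs. Genes passing filterByExpr of edgeR 4.0.16 in R 4.3.3 (minimum count 10, total 15) were TMM-scaled and fitted with glmQLFit on all 12 libraries, with the group and the batch (library preparation date per the study's methods) as terms. Tests were two-sided with a threshold of 0.05 after Benjamini-Hochberg adjustment. CPM are TMM-scaled, and values by pool or batch are log2(CPM + 0.5). DESeq2 1.42.0, limma 3.58.1 and other settings served as alternatives. The labels give each pool 1 number for its medium and its LPS library. By these labels, the pool number was taken to pair them. Deviations of these 2 libraries from their group means correlated in all 6 pools (r = 0.137 to 0.335). The correlation cannot settle the pairing, because both libraries of a pool share a batch and the batch was not removed. WT and Scnn1b-Tg libraries that share a number and a treatment also correlated (r = 0.11 to 0.261). No source says that the pools of a group are of separate litters or days, so p-values measure the spread between these pools.

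Members and lists were chosen with earlier results of these data known. All 9 members are named, and from the lists, per comparison, the 4 largest rises and 4 largest falls that passed the test, had no overlap of the groups compared and averaged 5 CPM or more over the 12 libraries. For each member the 2 most correlated other genes are named. Listed genes missing from the table were not analysed here.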

Additional observations from a re-analysis of the deposited data

How the results depend on the processing

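The LPS rises of Fth1, Hmox1, Slc11a1, Slc11a2 and Lcn2 kept their direction and passed under all 22 alternatives in both genotypes. So did the LPS changes of Hamp and of the listed genes named by the rule. The alternatives are not given here for Slc22a17, Trf and Bdh2, and Bdh2 did not pass in WT in the main fit (edgeR adjusted p = 0.334). Of 45 member comparisons, 35 kept their direction under every alternative fitted. With the pool as a fixed or random replicate block, 7 or 6 members passed with LPS in WT and 7 in Scnn1b-Tg. Of all genes, 5233 or 5305 then passed in WT and 6098 or 6178 in Scnn1b-Tg, beside 4359 and 5225 in the main fit. Among the members the block changed no call beyond those given for Slc40a1, Blvrb and Ftl1. WT and Scnn1b-Tg pools share 2 numbers, whose libraries correlated at 0.11 to 0.261; with the replicate number as a block in place of the batch, 12 genes passed between the genotypes with LPS and 77 in medium.

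Counts between the genotypes moved most. With LPS, 7 of all genes passed, and 146 with DESeq2, 4 without the batch term, 11 with the random block, 2 with only 6 libraries and 2 to 10 with a library left out; DESeq2 called 1 listed gene. In medium, 46 passed, and 18 with no filter, 500 with DESeq2, 28 without the batch term, 20 with only 6 libraries and 3 to 49 with a library left out. Members passing in medium went from 1 to 0 with no filter and with only 6 libraries, and were 0 to 1 with a library left out. Listed genes passing in medium went from 1 to 0 with no filter and with 6 libraries, 5 with DESeq2, 2 with counts divided by 5 and 0 to 2 with a library left out. For the difference of the LPS responses, DESeq2 called 1 member and 77 genes, and leaving out a library gave 0 to 1 genes. The cause was not tested.

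Differences that turned sign had not passed. Without the batch term Tfrc in medium was -0.09 and Blvrb with LPS 0.07. With the random block Blvrb with LPS was 0.01, and with the replicate number as a block Slc40a1 with LPS was 0.08, Blvrb 0.11 and Tfrc in medium -0.09. With a library left out, Scnn1b-Tg minus WT ran from -0.28 to 0.19 for Slc40a1 and -0.18 to 0.16 for Blvrb with LPS, and from -0.37 to 0.06 for Slc40a1 and -0.07 to 0.20 for Tfrc in medium. The LPS change of Tfrc in Scnn1b-Tg ran from -0.06 to 0.25. The difference of responses ran from -0.07 to 0.06 for Ftl1, -0.10 to 0.38 for Slc40a1, -0.31 to 0.0019 for Tfrc, -0.67 to 0.88 for Lcn2 and -0.04 to 0.34 for Blvrb. Lcn2 values in medium rest on 3 to 23 counts per library, which limits its fold change.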
